A study of Mus musculus with 4 samples.

Results

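Igll1, Vpreb1, Vpreb2, Vpreb3, Cd79a, Cd79b, Dntt, Rag1 and Rag2, which serve the pre-B receptor and V(D)J recombination, were described in single cells of the mouse femoral epiphysis. They were taken by symbol, and all 9 are among the 55416 features of the count matrices. Cells came from WT mice at 7, 8, 10 and 12 days of age, with no treatment named in the labels. There was 1 library per day. How many animals each library pools is not stated in the labels. Days are therefore compared without a test, and every interval below covers counting error only. The digestion protocol in the labels names a bowel tissue in place of the epiphysis. Chondrocyte-like cells, defined by markers such as Col2a1 and Acan, made up 52.8% of the kept cells on day 7 and 41.8% on day 8, but 1.40% on day 10 and 8.08% on day 12. These shares leave out unnamed clusters whose best list was the chondrocyte one (1843, 605 and 1769 cells on day 7, and 21, 148 and 5 on day 12). An unnamed cluster led by Vit, Cilp2, Wif1 and Chad (667 cells on day 10, 2238 on day 12) is left out too. They are thus not shares of all cartilage cells.

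A developing B cell first joins the gene segments of its heavy chain. The RAG1 and RAG2 proteins cut the DNA, and terminal deoxynucleotidyl transferase, encoded by Dntt, adds bases at the cut ends. A finished heavy chain then pairs with the surrogate light chain, built from the products of Igll1 and of Vpreb1 or Vpreb2, and this pre-B receptor signals through the Cd79a and Cd79b chains until light chain rearrangement replaces the surrogate. Vpreb3 encodes a related protein that stays inside the cell and binds newly made immunoglobulin chains.

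The promoters of the surrogate light chain genes, Vpreb3 and Cd79a are shown because these genes had distinct patterns over the B-cell stages below. Each is the 250 bases before the RefSeq gene start, 5′ to 3′ on the gene's strand, from RefSeq's table for GRCm38.p6. Capitals mark matches on either strand to the 5 short motifs named after the sequences.
Igll1 (lambda-like chain of the surrogate light chain; chr16:16863986-16864235, minus strand): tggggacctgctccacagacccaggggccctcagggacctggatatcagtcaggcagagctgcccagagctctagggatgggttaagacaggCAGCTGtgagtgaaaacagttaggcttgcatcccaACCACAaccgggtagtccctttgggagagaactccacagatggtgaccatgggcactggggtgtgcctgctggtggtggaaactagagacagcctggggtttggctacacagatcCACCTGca
Vpreb1 (variable-like chain; chr16:16869256-16869505, minus strand): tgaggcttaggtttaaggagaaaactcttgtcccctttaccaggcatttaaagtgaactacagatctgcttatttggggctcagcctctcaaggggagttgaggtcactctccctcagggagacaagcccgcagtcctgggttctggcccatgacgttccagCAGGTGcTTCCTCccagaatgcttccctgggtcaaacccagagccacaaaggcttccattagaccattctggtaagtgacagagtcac
Vpreb2 (variable-like chain; chr16:17980315-17980564, plus strand): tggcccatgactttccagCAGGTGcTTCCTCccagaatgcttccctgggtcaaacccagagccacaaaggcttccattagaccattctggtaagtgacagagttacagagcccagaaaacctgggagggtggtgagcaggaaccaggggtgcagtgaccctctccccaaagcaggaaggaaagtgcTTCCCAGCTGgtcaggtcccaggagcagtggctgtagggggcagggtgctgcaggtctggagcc
Vpreb3 (variable-like endoplasmic reticulum protein; chr10:75948050-75948299, plus strand): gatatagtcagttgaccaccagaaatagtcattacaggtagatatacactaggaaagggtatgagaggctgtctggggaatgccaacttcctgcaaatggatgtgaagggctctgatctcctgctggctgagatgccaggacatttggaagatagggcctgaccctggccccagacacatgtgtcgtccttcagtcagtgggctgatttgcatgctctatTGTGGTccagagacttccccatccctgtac
Cd79a (signalling chain Ig-alpha; chr7:24897247-24897496, plus strand): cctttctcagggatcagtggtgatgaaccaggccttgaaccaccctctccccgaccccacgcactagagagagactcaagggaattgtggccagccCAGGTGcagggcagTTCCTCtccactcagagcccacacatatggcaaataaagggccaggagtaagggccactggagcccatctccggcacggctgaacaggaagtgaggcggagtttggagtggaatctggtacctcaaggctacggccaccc
The letters CAGGTG, an E-box, occurred in 5 of the 8 members with a sequence in the table (Igll1, Vpreb1, Vpreb2, Rag1 and Cd79a) and in 17.22% of all 32851 promoter windows. The letters CAGCTG occurred in 3 members (13.001% of windows) and GAGGAA in 4 (23.253%). TGTGGT occurred in 3 members (14.045%), and TGGGAA in 2 (21.594%). In Vpreb2 the matches to TGGGAA and CAGCTG overlap. The palindromic EBF1 motif and TATAAA had no match in the 8 windows, against 0.779% and 12.368% of all windows. A match is a description of the letters, not a binding site. Cd79b had no entry in the table.

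Vpreb1 and Vpreb2 are near copies. The windows above share an unbroken run of 91 bases, which begins 94 bases before the start of Vpreb1 and 238 bases before that of Vpreb2. Both CAGGTG and the GAGGAA match beside it lie in this run, so they begin 88 and 81 bases before the start of Vpreb1 but 232 and 225 bases before that of Vpreb2. Their coding sequences in the GENCODE annotation of GRCm38 are 429 bases each and identical at 420 positions (97.902%). Their last 150 coding bases hold 6 of the 9 differences, marked here by capitals.
Vpreb1: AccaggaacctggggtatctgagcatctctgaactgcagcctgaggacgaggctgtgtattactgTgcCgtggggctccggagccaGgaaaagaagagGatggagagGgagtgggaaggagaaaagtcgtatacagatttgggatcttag
Vpreb2: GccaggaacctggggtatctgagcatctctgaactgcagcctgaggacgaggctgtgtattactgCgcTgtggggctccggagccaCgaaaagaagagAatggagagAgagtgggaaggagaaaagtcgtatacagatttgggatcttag
The 3′ untranslated regions, where a 3′ library reads most, are 193 bases each and differ at 7 positions, and the longest identical stretch is 45 bases. Counts of this pair are therefore given as uncertain wherever the counting could have split reads between them. Vpreb2 held 16.3% (95% exact binomial interval 7.32 to 29.7) of the pair's UMIs (unique molecular identifiers, which count captured RNA molecules) in the B-lineage cells of day 7. The share was 17.9% (12.7 to 24.3) on day 8, 12.3% (11.7 to 12.9) on day 10 and 11.8% (11.02 to 12.6) on day 12. The shares of days 10 and 12 agreed within counting error.

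Of 54192 deposited barcodes, 49055 passed the cell filter, with 10028 to 16254 kept cells per library and median depths of 3103 to 7706.5 UMIs per cell. Pairs of libraries shared 72 to 282 barcodes, and none of the shared barcodes was a B-lineage cell in both. Cells were clustered without the 9 members and without immunoglobulin genes, and 2 of the 31 clusters carried the B-lineage markers, such as Pax5 and Ebf1. They held 9 cells on day 7 and 33 on day 8. On day 10 they held 841 cells (8.39% of kept cells, exact interval 7.85 to 8.95), and on day 12 they held 1131 (6.96%, 6.57 to 7.36). The early cluster (638 cells on day 10, 623 on day 12) was high in 8 of 8 pro-B and 9 of 9 dividing-cell markers, and also in 5 of 8 small pre-B and 5 of 13 immature or mature B-cell markers. The late cluster (203 and 508 cells) was high in 6 of 8 small pre-B and 10 of 13 immature or mature B-cell markers, in 5 of 8 pro-B markers and in 0 of 9 dividing-cell markers. Apart from the dividing-cell markers, the marker lists thus overlap between the clusters. Median depth was 10368.5 and 6028 UMIs per cell in the early cluster, and 5349 and 2608 in the late cluster. RNA of other cell types moved with the day: in B-lineage cells the chondrocyte markers summed to 1296 CPM (counts scaled to a total of 1000000 UMIs in the cell set) on day 10 and 7839 on day 12, and the erythroid markers to 12806 and 7126. All 10 chondrocyte and all 9 erythroid markers were detected on both days. Their part in the results below was not tested. For comparison, the members' free RNA level is given from chondrocyte-like cells (median 23343.5 and 15894.5 UMIs on days 10 and 12) and from an unnamed cluster led by globin genes (2077 and 828 cells, median 1847 and 1684 UMIs).

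Among the members, 8 had UMIs in every library and Rag1 had none in any. On day 10, B-lineage cells held 84.5% to 86.5% of each detected member's UMIs, and on day 12 they held 76.6% (Cd79b) to 86.3%.

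Igll1, Vpreb1 and Vpreb2, which build the surrogate light chain, were high in the early cluster and low in the late cluster in both libraries. Igll1 was at 1610 CPM (15195 UMIs, 95% exact Poisson interval 1585 to 1636) in the early cluster on day 10 and at 1396 CPM (1365 to 1428) on day 12. In the late cluster Igll1 was at 91.1 CPM (75.7 to 108.8) and 29.0 CPM (21.5 to 38.2). The early level was thus 17.5-fold and 47.2-fold the late one, with 1 UMI added to each sum. Igll1 in chondrocyte-like cells was at 15.8 and 6.15 CPM in the same libraries, below the late cluster. In the globin-led cluster it was at 122 CPM (113 to 132) and 39.8 CPM (31.1 to 50.3), higher than in the late cluster on day 10 and with overlapping intervals on day 12. The late Igll1 level is therefore not called above free RNA.

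Vpreb1 was at 1096 and 1005 CPM in the early cluster of days 10 and 12 and at 59.0 and 27.3 CPM in the late cluster, which is 18.3-fold and 36.1-fold. The globin-led cluster held Vpreb1 at 86.1 and 33.6 CPM, so its late level is not called above free RNA either. Vpreb2 was at 153 and 135 CPM in the early cluster and at 7.47 (10 UMIs) and 2.32 CPM (4 UMIs) in the late one. The late Vpreb2 intervals, 3.58 to 13.7 and 0.63 to 5.94 CPM, overlapped those of chondrocyte-like cells, 1.33 to 5.11 and 0.40 to 1.14 CPM. The few early cells of days 7 and 8 (7 and 27) also carried these genes, with Igll1 at 2868 CPM (64 UMIs, 2209 to 3662) and 1180 CPM (144 UMIs, 995 to 1389). Vpreb1 was at 1837 and 1237 CPM and Vpreb2 at 358 and 270 CPM in those cells. Of the 9 and 33 B-lineage cells, 8 and 30 formed a subcluster led by the heat-shock genes Hspa1a and Hspa1b, with 0 cells on days 10 and 12, so these early libraries are not set against the later ones.

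Vpreb3 did not follow the surrogate light chain genes. It was at 1638 CPM (1612 to 1664) in the early cluster and 1371 CPM (1309 to 1435) in the late cluster on day 10. On day 12 it was at 1413 and 951 CPM. Its early over late ratio was 1.19 and 1.48, below the 2-fold mark. The early cells of days 7 and 8 were at 2285 CPM (1702 to 3005) and 1475 CPM (1267 to 1707). When the B-lineage cells were clustered again by themselves, again without the members, Vpreb3 differed between the later stages. Small pre-B-like cells (137 on day 10, 195 on day 12) were at 1941 and 1965 CPM, while immature or mature-like cells (31 and 229) were at 226 and 582 CPM. The small pre-B-like level was 8.497-fold and 3.37-fold the immature or mature-like one.

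Cd79a and Cd79b, the signalling chains of both the pre-B receptor and the mature receptor, were present at every stage. Cd79a was at 741 and 751 CPM in the early cluster on days 10 and 12 and at 1072 and 1197 CPM in the late one. Cd79b was at 472 and 404 CPM in the early cluster and at 1003 and 1002 CPM in the late cluster, an early over late ratio of 0.47 and 0.40. The intervals of the late cluster on the 2 days, 950 to 1058 and 955 to 1050 CPM, overlapped for Cd79b. In the early cells of days 7 and 8, Cd79a was at 717 CPM (16 UMIs) and 475 CPM (58 UMIs), and Cd79b at 762 CPM (17 UMIs) and 451 CPM (55 UMIs).

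**Figure D1:**
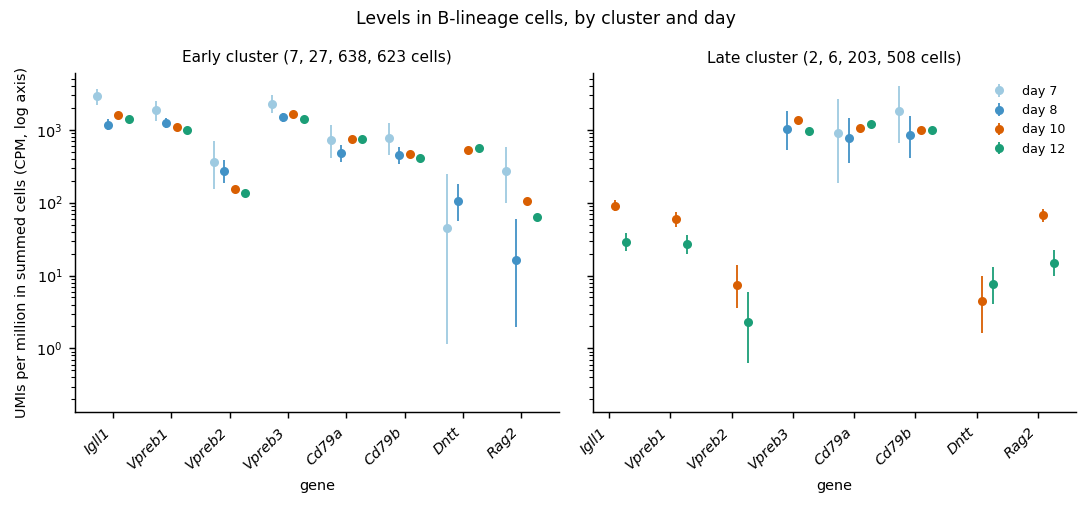
Level of the 8 detected members (CPM of the summed cells, log axis) in the early and late B-lineage clusters, 1 point per library with its exact Poisson 95% interval and members at 0 left out. Igll1, Vpreb1, Vpreb2 and Dntt are high in the early cluster and low in the late one on days 10 and 12, while Vpreb3, Cd79a and Cd79b are high in both.

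Dntt had the highest early over late ratio of the 8 detected members in both libraries. It was at 527 CPM (513 to 542) in the early cluster on day 10 and 563 CPM (544 to 584) on day 12. In the late cluster only 6 UMIs (4.48 CPM) and 13 UMIs (7.54 CPM) were counted. Dntt in chondrocyte-like cells was at 5.83 CPM on day 10, within the late interval of 1.64 to 9.75, and at 2.11 CPM (1.55 to 2.80) on day 12, below the late interval of 4.02 to 12.9. In the globin-led cluster it was at 35.1 CPM (30.3 to 40.5) on day 10 and, with 13 UMIs, between 3.94 and 12.7 CPM on day 12. The late Dntt level is thus not called above free RNA either. The early level was 101-fold and 69.4-fold the late one. On day 7 only 1 Dntt UMI was counted in the 7 early cells (44.8 CPM, interval 1.13 to 250), and on day 8 13 UMIs were counted in 27 cells (107 CPM, 56.7 to 182).

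Rag2, which pairs with Rag1 in the recombinase, was at 106 CPM (99.3 to 113) and 63.5 CPM (57.0 to 70.7) in the early cluster on days 10 and 12. In the late cluster it was at 67.2 CPM (54.1 to 82.6) and 15.1 CPM (9.86 to 22.1). Small pre-B-like cells were at 132 CPM (107 to 161) and 52.5 CPM (34.3 to 76.9), and immature or mature-like cells held 1 Rag2 UMI in each library. Chondrocyte-like cells were at 0.56 and 0.53 CPM. The early cells of days 7 and 8 held 6 and 2 Rag2 UMIs.

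Of the 8 members tested, 4 were at least 2-fold higher in the early than in the late cluster in both libraries (Igll1, Vpreb1, Vpreb2, Dntt), against 6.05% of 11462 genes with at least 20 UMIs. Cd79b alone was at least 2-fold lower, against 5.62%. Vpreb3, Rag2 and Cd79a passed in neither direction. Between small pre-B-like and immature or mature-like cells, 4 of 6 tested members were higher in both libraries (Igll1, Vpreb1, Vpreb3 and Rag2), against 4.85% of genes, and 0 were lower, against 5.24%. The remaining Dntt and Vpreb2 had too few UMIs there. On day 12 Igll1 and Vpreb1 were each at 42.4 CPM in small pre-B-like cells, near their levels in the globin-led cluster. So was Vpreb1 on day 10, at 90.5 CPM. These levels of small pre-B-like cells are therefore not called above free RNA.

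The B-lineage cells fell into 17 subclusters, and several of them came almost wholly from 1 library, so a subcluster and a library cannot be told apart there. Of these, 4 subclusters, with 88 cells on day 10 and 186 on day 12, were led by genes of other cell types. The members separated dividing cells of 2 kinds. In subcluster 7 (45 cells on day 10, 38 on day 12), led by Pimreg, Ccnb1 and Ube2c, Igll1 was at 1955 and 2316 CPM, Dntt at 741 and 1321 CPM and Rag2 at 131 and 119 CPM. In subcluster 4 (101 and 136 cells), led by Fmn2, Myl4 and Gm43305 and also high in dividing-cell markers, Igll1 was at 128 and 305 CPM. Its Igll1 level of day 10 lies within the interval of the globin-led cluster and is not called above free RNA. Dntt in subcluster 4 had 4 UMIs on day 10 and 0 on day 12, a count that leaves room for up to 3.59 CPM, and Rag2 was at 73.8 and 82.5 CPM. Vpreb3 was at 1711 and 1871 CPM in subcluster 4, near its level of 1918 and 2261 CPM in subcluster 7.

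Subcluster 11 (41 and 58 cells), led by Nrgn, Hdac9, Tox, Ccnd2 and Myc, had yet another combination. Its Igll1 level was 1041 CPM (988 to 1097) on day 10 and 1268 CPM (1195 to 1345) on day 12. Its Dntt level was 45.0 and 17.0 CPM, and its Rag2 level was 10.2 CPM (14 UMIs) and 7.92 CPM (7 UMIs). Given the Dntt level of the globin-led cluster, its Dntt is not called above free RNA. Igll1 was in 97.6% and 98.3% of these cells, while Rag2 was in 19.5% and 5.17%. These shares are not thinned, and the cells were deep, with a median of 18211 UMIs.

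Other subclusters high in Igll1 differed by library. On day 10, subcluster 10 (174 cells, led by Hes1, Ankrd33b and Cd69) was at 3093 CPM Igll1, 987 CPM Dntt and 195 CPM Rag2, and subcluster 5 (88 cells) was at 3080, 1319 and 225 CPM of the same genes. On day 12, subcluster 16 (128 cells) was at 3145 CPM Igll1, 1430 CPM Dntt and 141 CPM Rag2. Subcluster 9 (118 cells on day 12), led by Hmga2 and Flt3, was at 1589 CPM Igll1, 818 CPM Dntt and 57.9 CPM Rag2. All 4 held high levels of both Igll1 and Dntt.

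Small pre-B-like cells were mostly subcluster 2 on day 10 (124 cells) and subcluster 3 on day 12 (192 cells), both led by Reln and Agbl1. Subcluster 2 was at 182 CPM Igll1 and 140 CPM Rag2 on day 10, and subcluster 3 at 37.1 and 51.5 CPM on day 12. In immature or mature-like cells, led by Ms4a1 and Cd74, Igll1 was at 9.15 CPM (4 UMIs, interval 2.49 to 23.4) and 10.6 CPM (8 UMIs, 4.56 to 20.8). Those levels lay around the 15.8 and 6.15 CPM of chondrocyte-like cells, below those of the globin-led cluster, and are read as background. Cd79a was at 933 and 1454 CPM in the same cells. Subcluster 12 (26 and 31 cells), with Agbl1 and Ms4a1 among its leading genes, combined Vpreb3 at 1893 and 1744 CPM with 0 Rag2 UMIs in both libraries, which allows at most 22.2 and 40.6 CPM.

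**Figure D2:**
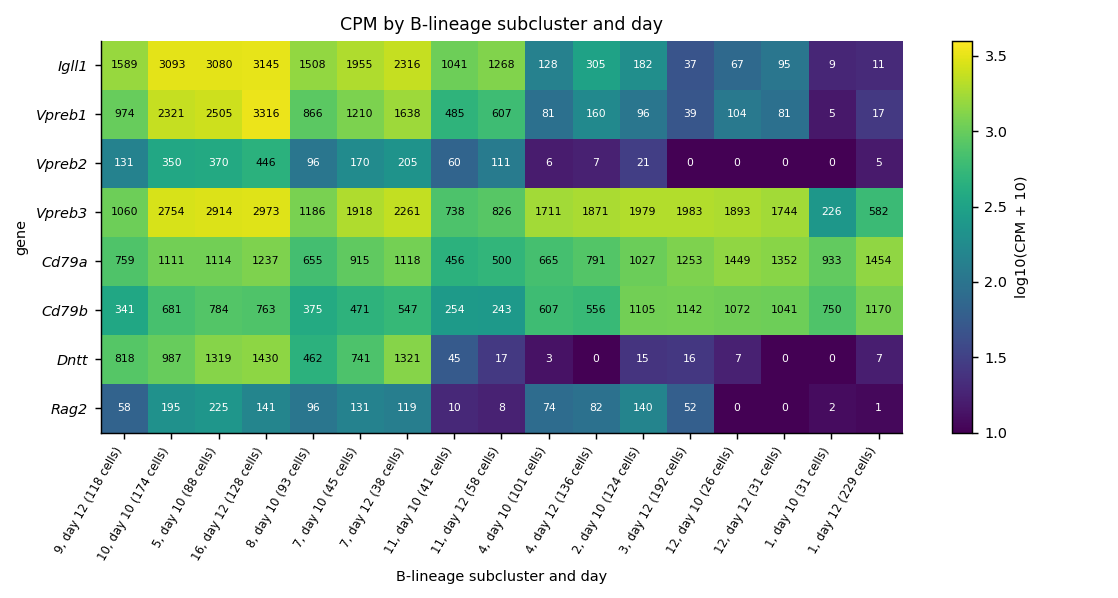
CPM of the 8 detected members (rows) in B-lineage subclusters of days 10 and 12 (columns, with their number of cells), with colour on the scale of log10(CPM + 10). Subclusters with high Dntt also have high Igll1, subcluster 11 has high Igll1 with Dntt at 45.0 and 17.0 CPM, and subcluster 4 has Rag2 at 73.8 and 82.5 CPM with 4 and 0 Dntt UMIs.

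Between the 2 libraries with many B-lineage cells, a member counted as changed from a 1.5-fold ratio of CPM. Rag2 was at 101 CPM (1088 UMIs) over all B-lineage cells on day 10 and at 51.8 CPM (367 UMIs) on day 12, a log2 ratio of -0.96 (interval -1.14 to -0.79). It was the only one of 8 tested members past the mark on the lower side, against 10.7% of 13868 genes, and 0 members passed on the higher side, against 15.7%. The share of members is near that of all genes. Igll1 stood at a log2 ratio of -0.42, Vpreb1 at -0.33, Vpreb2 at -0.40, Vpreb3 at -0.30, Dntt at -0.11, Cd79b at 0.03 and Cd79a at 0.14. The median over all genes tested was 0.10. Without the 4 subclusters led by genes of other cell types, Rag2 was at -0.86 (-1.05 to -0.68) and still the only member past the mark, against 11.1% of genes lower.

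Within the early cluster Rag2 was again the only member past the mark, at -0.73 (-0.92 to -0.56), against 11.2% of genes lower, while 0 members were higher, against 13.0%. Dntt was at 0.10 and Igll1 at -0.21 there. In the late cluster, 3 of 6 tested members were lower on day 12, against 11.7% of genes, and 0 were higher, against 20.2%. These were Rag2 at -2.12 (-2.84 to -1.51), Igll1 at -1.63 (-2.16 to -1.17) and Vpreb1 at -1.10 (-1.67 to -0.57). The makeup of the later stages also moved, since 31 immature or mature-like cells were counted on day 10 and 229 on day 12. In small pre-B-like cells alone the same 3 of 6 members were lower, against 10.7% of genes, with Igll1 at -1.94, Rag2 at -1.29 and Vpreb1 at -1.05. Their median depth was 5197 UMIs on day 10 and 2369 on day 12. Igll1 was also lower on day 12 in chondrocyte-like cells and in the globin-led cluster, where it was at 122 and 39.8 CPM against 169 and 42.4 CPM in small pre-B-like cells. Vpreb1 was lower on day 12 in the globin-led cluster too, at levels near the 90.5 and 42.4 CPM of small pre-B-like cells. In the late cluster neither Igll1 nor Vpreb1 is called above free RNA, so their ratios there are not read as changes of the B-lineage cells. Subcluster 2, the main source of these cells on day 10, was high in 70% of the neutrophil markers and 62.5% of the small pre-B markers, while subcluster 3, the main source on day 12, was high in the same share of small pre-B markers and had osteoblast markers, at 33.3%, as its next list. In small pre-B-like cells the neutrophil markers summed to 868 CPM on day 10 (8 of 10 detected, Mmp8 and Cxcr2 at 0) and 406 CPM on day 12 (9 of 10, Cebpe at 0). The erythroid markers summed to 24322 and 13700 CPM (9 and 8 of 9, Klf1 at 0 on day 12), and the chondrocyte markers, all 10 detected on both days, to 1412 and 6309 CPM. Their part in the difference between the days was not tested.

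In immature or mature-like cells Igll1, Vpreb1 and Rag2 had too few UMIs to be tested. Of 3 tested members 3 were higher on day 12, against 24.7% of genes, with Vpreb3 at 1.35 (1.04 to 1.69), Cd79a at 0.64 (0.48 to 0.81) and Cd79b at 0.64 (0.46 to 0.83). In small pre-B-like cells these genes were at 0.02, 0.27 and 0.02. In the immature or mature-like cells, 10 of 18 genes of receptor signalling were also higher and 0 lower, as were 5 and 0 of 12 tested controlling factors. Of 12 tested end-joining genes and V(D)J helpers there, 1 was higher and 4 were lower, and of 5 tested immunoglobulin constant genes 0 and 2. Over all genes tested in these cells, 24.7% were higher and 17.3% were lower. The day-10 value rests on 31 cells, and the median depth was 7904 UMIs on day 10 and 2653 on day 12.

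**Figure D3:**
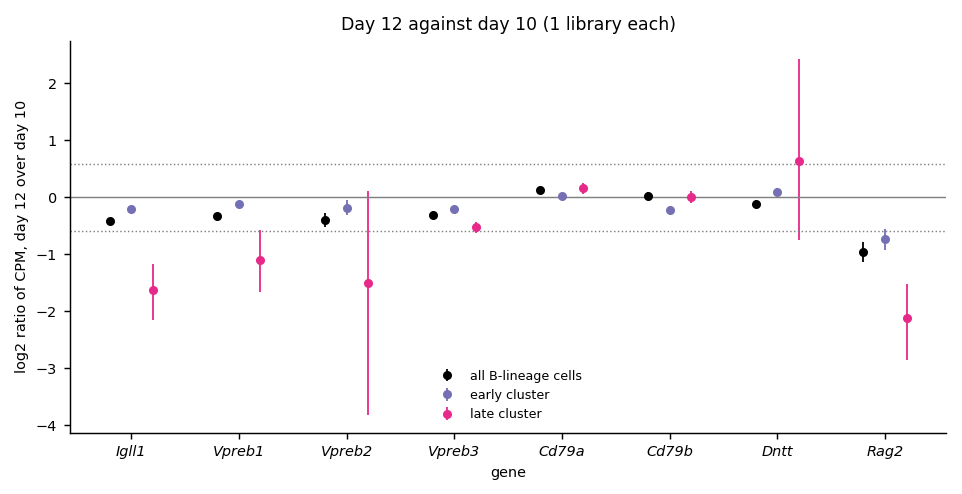
Log2 ratio of CPM, day 12 over day 10, for each detected member in all B-lineage cells and in the early and late clusters, with intervals from counting error and dotted lines at 1.5-fold. Rag2 is the lowest member in each of the 3 sets (-0.96, -0.73 and -2.12), and Cd79a and Cd79b lie within the dotted lines.

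Joint detection was read after thinning each cell to 1000 UMIs, which removes the difference in depth. In the early cluster, Igll1 was seen in 69.0% of thinned cells on day 10 and 55.5% on day 12, and Vpreb1 in 61.1% and 52.6%. Chondrocyte-like cells showed Igll1 in 2.86% and 0.30% of thinned cells and Vpreb1 in 0% and 0.15%. Both genes were seen together in 339 of 638 cells on day 10 (53.1%, exact interval 49.2 to 57.1), where the product of the separate shares is 42.2%. On day 12 they were seen together in 262 of 623 cells (42.1%, 38.1 to 46.0), where the product is 29.2%. Among cells with Igll1, 77.0% also had Vpreb1 on day 10 and 75.7% on day 12, against 25.8% and 23.8% of cells without Igll1. The parts of the surrogate light chain were thus found in the same cells more often than the product of their shares. The early cluster mixes subclusters with different levels, which by itself raises joint detection, and pairs were not counted within subclusters of the early cluster.

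Dntt and Igll1 were seen together in 31.5% of early cells on day 10 (27.9 to 35.3, product 24.97%) and in 25.2% on day 12 (21.8 to 28.8, product 16.8%). Igll1 was seen in 87.0% and 83.5% of cells with Dntt and in 58.7% and 43.5% of cells without it. Vpreb2 was seen in 23.8% and 22.6% of cells with Vpreb1 and in 8.47% and 4.07% of cells without, a pair for which shared reads remain uncertain.

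The signalling pair came closer to the product. Cd79a and Cd79b were seen together in 27.3% of early cells on day 10 (23.9 to 30.9, product 23.7%) and in 19.4% on day 12 (16.4 to 22.7, product 17.6%). In the late cluster they were seen together in 38.9% (32.2 to 46.0, product 37.3%) and 47.2% (42.8 to 51.7, product 44.3%). The product lay within the interval in the late cluster of both days and in the early cluster of day 12.

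Dntt and Rag2, which both act in heavy chain joining, were seen together in 29 early cells on day 10 (4.55%, 3.06 to 6.46, product 3.97%) and 15 on day 12 (2.41%, 1.35 to 3.94, product 1.84%). The product lay within both intervals. Without thinning, 253 of 638 early cells on day 10 held both (39.7%, 35.8 to 43.6, product 34.3%), and 123 of 623 did on day 12 (19.7%, 16.7 to 23.1, product 14.1%). The product then lay below both intervals, in cells of unequal depth. In the late cluster, 0 cells held Dntt with Rag2 after thinning on either day, which allows up to 1.48% and 0.59%. Igll1 with Vpreb1 was in 4 of 203 late cells on day 10 and 2 of 508 on day 12. On day 7, without thinning, 5 of 9 B-lineage cells held both Igll1 and Vpreb1, and on day 8 23 of 33 did.

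**Figure D4:**
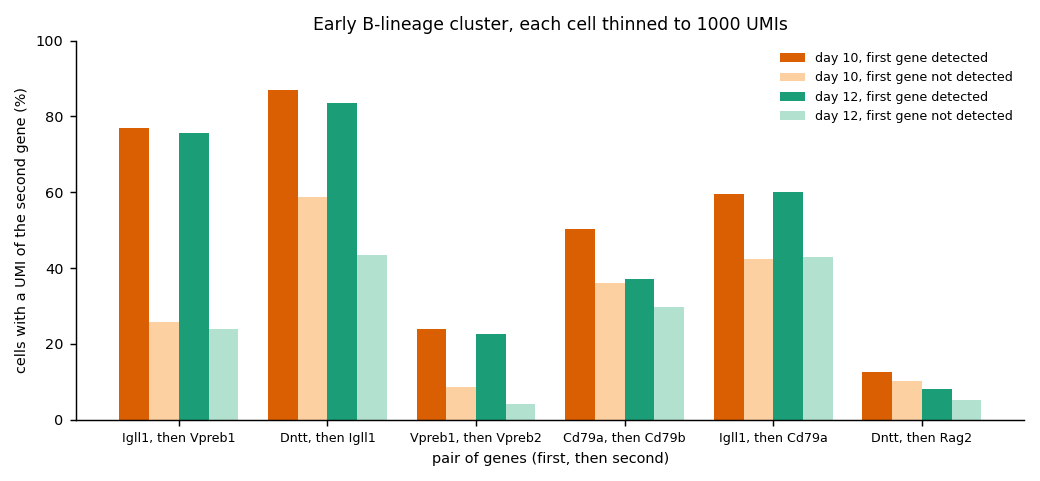
Share of early-cluster cells, each thinned to 1000 UMIs, with a UMI of the second gene of a pair, among cells with and without the first gene, for days 10 and 12. Vpreb1 is seen in 77.0% and 75.7% of cells with Igll1 and in 25.8% and 23.8% of cells without, while Rag2 is seen in 12.6% of cells with Dntt and 10.1% of cells without it on day 10.

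Rag1 had 0 UMIs in all 54192 barcodes. Among the 60 members and listed genes, Igkc and Irf8 were the only others at 0. In the GENCODE annotation of GRCm38, which is not the files' build, each of these 3 lies wholly inside another gene on the same strand, and the other 57 do not. Rag1 lies inside B230118H07Rik, which the files call Iftap, Igkc inside Gm30211 and Irf8 inside Gm20388. Over all protein-coding genes matched, 429 of 460 genes so placed were at 0 (93.26%), against 1603 of 21417 others (7.48%). The zeros are therefore not read as absence of the transcript, and whether the counting of nested genes set them was not tested.

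The counts of the enclosing genes varied with stage. Iftap was at 96.0 CPM (74.9 to 121) and 101 CPM (74.9 to 133) in small pre-B-like cells of days 10 and 12. In immature or mature-like cells it was at 6.86 and 6.61 CPM. It was also at 31.1 and 35.8 CPM in chondrocyte-like cells, so its count cannot stand for Rag1. Gm30211 was at 332 and 178 CPM in small pre-B-like cells.

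Outside the B lineage, Dntt was found in stem and progenitor-like cells (21 on day 10, 41 on day 12), which carried Flt3, Cd34, Hlf and Mecom. There Dntt was at 90.5 CPM (44 UMIs, 65.7 to 121) on day 10 and 322 CPM (188 UMIs, 277 to 371) on day 12. The UMIs lay in 5 of 21 and 8 of 41 cells, and the highest cell held 17 and 74 of them. Rag2 was counted in 2 and 4 of these cells, each of which also held Dntt, while Igll1 had 1 UMI on each day. Pax5, the factor that commits cells to the B lineage, had 1 UMI on day 10 and 0 on day 12. Ebf1, which acts before Pax5, was at 61.7 and 169 CPM, against 8635 and 5899 CPM in B-lineage cells. No free RNA level of Ebf1 is given, so its level in stem and progenitor-like cells is not called above free RNA.

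On day 8, an unnamed progenitor subcluster of 30 cells, led by Hspa1a and Hspa1b, held 91 Dntt UMIs, or 320 CPM. They lay in 2 cells, of which the higher held 70. Of the granulocyte progenitor markers, Ctsg, Elane, Mpo, Prtn3 and Ms4a3 were at 820 to 2681 CPM there and Fcnb at 21.1 CPM, while Flt3 was at 56.3 CPM. On day 8 only 10.1% of the library's Dntt UMIs (13 of 129) lay in B-lineage cells, and on day 7 4.76% (1 of 21). The shares were 86.4% on day 10 and 83.9% on day 12. Those of days 7 and 8 rest on few UMIs and are not read as a change with age.

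Cd79b was also counted in myeloid cells. In monocyte or macrophage-like cells Cd79b was at 12.0 CPM (10 UMIs, interval 5.74 to 22.0) on day 7, 19.99 (15.3 to 25.7) on day 8, 16.5 (13.9 to 19.4) on day 10 and 26.0 CPM (23.3 to 29.0) on day 12. Cd79a had 0 UMIs in the same cells of days 7 and 8, so levels of up to 3.59 and 0.999 CPM are allowed, and was at 8.59 CPM (6.77 to 10.8) and 16.1 CPM (13.9 to 18.4) on days 10 and 12. Cd79b in chondrocyte-like cells was at 0.28, 0.14, 2.78 and 2.81 CPM on the 4 days. Cd79b thus lay above the chondrocyte-like level in all 4 libraries, including those with 9 and 33 B-lineage cells. This comparison used chondrocyte-like cells only, which held less Igll1 than the globin-led cluster on days 10 and 12. The Cd79b level of myeloid cells is therefore not called above free RNA on those days.

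Plasmacytoid dendritic-like cells (24 and 37) were at 57.3 CPM Cd79b (33.9 to 90.5) on day 10 and 64.9 CPM (33.5 to 113) on day 12, in 9 and 8 cells. The B-lineage markers summed to 2160 and 1855 CPM in these cells, with 13 and 11 of 14 detected. No Cd79b level of the globin-led cluster is set beside them, so their Cd79b level is not called above free RNA. Vpreb3 in these cells was in 2 cells on each day. In a granulocyte-progenitor-like subcluster of 33 cells on day 10, 116 Vpreb3 UMIs lay in 5 cells, of which the highest held 70. Cd79b was in 17 cells of this subcluster at 46.0 CPM, which is not called above free RNA either. The globin-led cluster held Vpreb3 at 144 and 51.8 CPM.

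**Figure D5:**
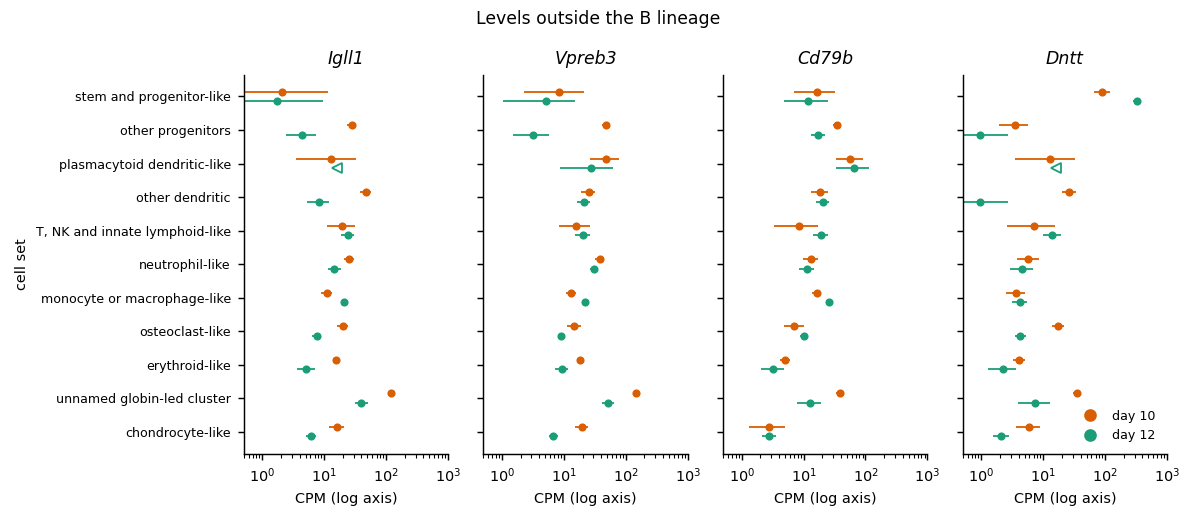
Level (CPM, log axis) of Igll1, Vpreb3, Cd79b and Dntt in cell sets outside the B lineage, 1 point per library of days 10 and 12 with its exact Poisson 95% interval, and an open triangle at the level of 3 UMIs where none was counted. Dntt is highest in stem and progenitor-like cells (90.5 and 322 CPM), and Cd79b is highest in plasmacytoid dendritic-like cells (57.3 and 64.9 CPM). The Cd79b level of the latter is not called above free RNA.

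Other genes of the pathway are given from lists chosen by function. As the background for each list, 6.05% of all genes tested were at least 2-fold higher in the early cluster in both libraries. A further 5.62% were at least 2-fold lower. Of 18 genes of pre-B and B-cell receptor signalling, 0 were at least 2-fold higher in the early than in the late cluster in both libraries and 6 were lower, with a median log2 ratio of -0.54 against -0.06 over all genes. They include the kinases Syk (0.43 and 0.37 of the late level), Lyn (0.36 and 0.26) and Blk (0.29 and 0.27) and the inhibitory receptor Cd22 (0.32 and 0.23). Of 14 end-joining genes and V(D)J helpers, 3 were higher and 1 was lower. The higher ones were H2ax (5.20-fold and 5.13-fold), Hmgb2 (3.96 and 5.41) and Hmgb1 (3.43 and 4.31), which dividing cells are known to express strongly, and the lower one was the polymerase gene Polm (0.14 and 0.19).

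Of 12 tested factors that control these loci, Erg was higher (3.76-fold and 3.73-fold) and Ikzf3 (0.10 and 0.12) and Spib (0.26 and 0.29) were lower. All 5 tested immunoglobulin constant genes were lower in the early cluster, among them Ighm (0.36 and 0.44) and Ighd (0.27 and 0.17). Erg is also a pro-B marker and Ighd an immature or mature B-cell marker, and these marker lists set the early and late names. The ratios of Erg and Ighd are thus tied to the names and are not a separate result. Ikzf3 is likewise on the small pre-B marker list. From day 10 to day 12 in all B-lineage cells, Cd22 was the only signalling gene past the 1.5-fold mark (0.70), Xrcc6 the only end-joining gene (-0.76) and Ikzf3 the only factor (0.84). Iglc1 (0.69) and Iglc2 (1.39) were higher among the constant genes. Over all genes tested between these days, 15.7% were higher and 10.7% were lower.

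The genes most like a member were ranked by Pearson correlation of log2(CPM + 10) over 46 sums of 16 cell sets, which share libraries and depth, and the values are a description. Igll1 was most like Bfsp2 (0.93), Arpp21 (0.90) and 1700027J07Rik (0.89). Dntt was most like Arpp21 (0.95), Drc7 (0.94) and Crhbp (0.93). Rag2, taken in place of Rag1, was most like Gm37065 (0.97), Capsl (0.97) and 1700027J07Rik (0.96). Cd79a was most like Pax5 (0.99) and Pou2af1 (0.99). Among the members, Igll1 with Vpreb1 (0.98) and Cd79a with Vpreb3 (0.99) were most alike of the pairs of detected members computed, and Dntt with Cd79b (0.63) least.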

How the data were processed

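Single-cell 3′ RNA libraries were made with a MobiNova-100 droplet system, 1 for each age. The deposited matrices hold raw UMI counts per gene and cell barcode, with no normalization by the authors, and the build is GRCm39 per the submitters' processing notes. For the aligner and the counting program, the sources used here give no name. A barcode was kept from 500 detected genes and 1000 UMIs upward, with a mitochondrial share of up to 15%. Scrublet called 3 cells (0.00612%) and was taken not to have worked, so no doublets were removed. Cells were clustered with scanpy 1.11.5 (2000 variable genes, 40 components, Leiden resolution 1), leaving out the 9 members and immunoglobulin genes, and clusters were named from marker lists. B-lineage cells were clustered again at the same resolution and without the same genes, with 20 components and 15 neighbours in place of 40 and 20. Variable genes were chosen there over all cells together, and in the first clustering by library.

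UMIs were summed per library and cell set and given as CPM of the set's UMIs with exact Poisson intervals. Shares have exact Clopper-Pearson intervals, all at 95%. Ratios add 1 UMI to each sum. Genes with at least 20 UMIs over both sides were counted past 1.5-fold (days) or 2-fold in both libraries (stages). With 1 library per day no p-value was computed. A share of 0 was given the limit of 3 counts. Detection was compared after thinning to 1000 UMIs. The ratios were tested on simulated data and the thinning was checked against its expected share. The text names the members, genes of 4 functional lists and, for 4 members, the genes with the most similar pattern. Members and lists were chosen with earlier results of these data known. Planned pairs with Rag1 or Igkc, and genes like Rag1, could not be given, since both had 0 UMIs, and pairs with Rag2 and Cd79a were used. Promoters came from RefSeq (GRCm38.p6) and coding sequences from GENCODE for GRCm38. Results for items withheld from this text are not reported here.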

Additional observations from a re-analysis of the deposited data

Results flagged for a closer look

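Vpreb2 was counted in small pre-B-like cells with 14 UMIs on day 10 and 0 on day 12, and in immature or mature-like cells with 0 UMIs on day 10 and 4 on day 12. The stage difference thus pointed in opposite directions in the 2 libraries, and the log2 ratio of day 12 less that of day 10 was -4.88 with 1 UMI added to each sum. The difference was not tested, the counts are few, and reads of Vpreb2 may be shared with its near copy Vpreb1.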

How the results depend on the processing

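Among alternative values for B-lineage shares, counts of members and joint detection of Igll1 with Vpreb1, 43 stayed close to the main value, 15 moved and none reversed. Among those for the day ratios of single members and the other pairs, 55 stayed close and 67 moved, including all those without thinning, at 2000 UMIs or by marker choice. Choosing B-lineage cells by UMIs of at least 3 markers gave shares of 0.566%, 1.40%, 28.9% and 18.9% on days 7, 8, 10 and 12, and 32.3% of the cells so chosen lay in the B-lineage clusters. It gave 4 members lower on day 12, and Igll1 with Vpreb1 in 13.0% of cells on day 10 and 9.09% on day 12. The mean of each cell's own CPM gave 4 members lower on day 12 and 0 lower in the early than in the late cluster. The late cluster alone, chosen after seeing the data like the other sets named in the report, gave 4 members lower and 1 higher without a minimum of UMIs. The lower ones were Igll1, Vpreb1, Vpreb2 and Rag2, and the higher one was Dntt. The share of all genes past the mark under these alternatives is not given, so these counts of members are not read against a background. Igll1 with Vpreb1 was in 52.8% (day 10) and 35.8% (day 12) of all B-lineage cells thinned to 2000 UMIs, and in 65.4% and 39.1% without thinning, against 40.8% and 23.3% at 1000 UMIs. Rag2 was lower on day 12 under all 9 alternatives, with log2 ratios from -2.12 to -0.73. So were Igll1 (-1.63 to -0.21), Vpreb1 (-1.10 to -0.12), Vpreb2 (-1.50 to -0.18) and Vpreb3 (-0.58 to -0.21). The 9 alternatives include the early and the late cluster alone, which are parts of the same cells. For Rag2, Igll1, Vpreb1 and Vpreb2 the lowest ratio is that of the late cluster and the highest that of the early cluster. Late ratios of Igll1 and Vpreb1 are not read as changes, and late Vpreb2 had 10 and 4 UMIs. Dntt was lower under 6 of 9 (-0.45 to 0.64), Cd79b under 3 and Cd79a under 1. No paired analysis was possible because each day has 1 library. No replicate could be left out for the same reason. Depth limits the late-cluster values of Vpreb2 and Dntt and everything in B-lineage cells of days 7 and 8.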
